A study of Xenopus laevis with 111 samples.

Results

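The genes described here were chosen because their mRNA level differed between earlier and later hours in spinal cords of *X. laevis* tadpoles that had no surgery. Levels were taken as CPM, the expected count of a gene divided by the total of its library in M, and compared as log2(CPM + 1). In the uninjured series S7, a gene model was a member when its mean over the 5 libraries of 7 to 11 h differed by 0.6 or more from its mean over the 5 libraries of 1 to 5 h. In addition, the libraries of the 2 windows could not overlap. A further condition required the mean difference between transected and sham libraries of the same series and hour at 16 to 21 h, over 9 pairs, to lie between -0.6 and 0.6. Of 45099 gene models, 32 met the rule with higher levels at 7 to 11 h (0.071%) and are called rising, and 18 met it with lower levels (0.0399%) and are called falling, 50 in all. The members were chosen by the S7 levels at these hours and the pair differences at 16 to 21 h, so these values are described without a test.

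The study compared tadpole spinal cords after transection, after sham surgery and without surgery, by mRNA-seq of pooled caudal cords at NF stage 50. Uninjured cords were taken at 0 to 13 h in S7 (14 libraries) and at 0 h and 12 to 21 h in S8 (11 libraries), both from 1 batch of animals that received no cut. Sham cords, with skin and muscle cut over an intact cord (36 libraries), and transected cords (36 libraries) were taken at 0.5 to 21 h in S1 to S6. The 8 libraries of 0 h in these series are labelled uninjured and serve both conditions. In differences of sham or transected cords from 0 h, the hour and the surgery therefore cannot be told apart. In a separate experiment, transected animals were kept in Torin1, an inhibitor of the kinase mTOR, or its solvent DMSO for the first 24 h after transection. There was 1 library of each at 24, 48 and 96 h, so those of 48 and 96 h were taken after the treatment had ended. Every library of an hour was 1 pool of animals, and the hours of a window stand in for replicates. The p-values of the comparisons of hours below measure the spread between pools and hours of a series and not between batches of animals. In the comparison of transected with sham cords, a window can join pairs of several series. Its p-values then also reflect differences of the effect between those few series. The time of day of each sample is not given in the sources used here. In a pooled tissue, fewer cells of a type and less RNA per cell cannot be told apart.

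As background, many transcripts of vertebrate tissues vary with the hour of sampling. The circadian clock, a loop of transcription factors that inhibit their own genes, drives some of them, and immediate early genes respond quickly to handling or stress and then return to their earlier level. The caudal cord of a tadpole holds neurons, glia and the neural stem progenitor cells around the central canal. The deposited tables name gene models by identifiers without symbols, and 0 of 45099 identifiers matched the RefSeq gene table used here (44456 genes). No member could therefore be given a gene name, a function or a sequence, and the tissue could not be checked against its defining markers. The 2 rising and 2 falling members with the largest differences are printed by identifier, and the others are called by their rank in size of the difference.

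The libraries of the time series held 9.96 to 76.6 M expected counts. Those of S7 ranged from 18.5 to 23.1 M at 1 to 5 h and from 13.6 to 23 M at 7 to 11 h. The S7 libraries of 12 h and 13 h and the S8 library of 12 h stood apart, with median Spearman correlations with their own series of 0.917, 0.962 and 0.932, while the other S7 and S8 libraries lay between 0.979 and 0.991. None of these 3 libraries entered the rule. Their mean effective transcript lengths, 1313, 1546 and 1407 bases, were low beside most libraries of S7. The windows of the rule overlapped in this measure (1469 to 1845 bases at 1 to 5 h and 1650 to 1850 bases at 7 to 11 h). The part of effective length and of library quality in the results was not tested. In S5, the sham libraries of 10, 11 and 12 h and the transected libraries of 10 and 11 h also stood apart, with median Spearman correlations of 0.951 to 0.959 against 0.982 to 0.993 in the later libraries of that series. The share of whole expected counts was 43.1% in the sham and 35.1% in the transected library of 12 h, so this pair joins libraries of both kinds. The comparison of transected with sham cords is also given without these pairs.

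The rising member with the largest difference, Xelaev18013919m.g, was at 3.94, 3.77, 8.76, 8.91 and 12.8 CPM at 1, 2, 3, 4 and 5 h in S7. At 7, 8, 9, 10 and 11 h it was at 14.7, 17.8, 17.4, 16.6 and 25.1 CPM. All 5 later libraries were above all 5 earlier ones. The earlier libraries were themselves spread from the level of 0 h (4.15 CPM) to near that of 7 h, and the 6 h library (15.7 CPM) lay among the later ones. The mean level was 7.64 ± 3.82 CPM (SD, n = 5) at 1 to 5 h and 18.3 ± 3.98 CPM (SD, n = 5) at 7 to 11 h, which is 2.4-fold higher. The difference of the mean log2(CPM + 1) values was 1.26.

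The next rising member, Xelaev18012821m.g, was at 2.07, 0.849, 2.09, 2.01 and 2.17 CPM at 1 to 5 h. At 7 to 11 h it was at 2.74, 4.53, 6.43, 5.4 and 5.28 CPM. The earlier libraries were close together except that of 2 h, and the 7 h library was the lowest of the later ones. Its mean level was 1.84 ± 0.56 CPM (SD, n = 5) and then 4.88 ± 1.37 CPM (SD, n = 5), a 2.65-fold higher level. The difference was 1.04 on the log2(CPM + 1) scale, which understates the change of a low gene. The rising member of rank 3 stepped up later, from 1.93 CPM at 8 h to 5.36 CPM at 9 h. That of rank 4 did so earlier, from 16.0 CPM at 3 h to 24.6 CPM at 4 h and 29.4 CPM at 5 h. The rising members thus did not share 1 hour of change within S7.

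Over the 32 rising members the difference ranged from 0.61 to 1.26 with a median of 0.66. Over the 32328 genes that passed the filter on low counts (at least 5 counts at no fewer than 4 time points), the median was 0.04. All 50 members passed this filter. Mean levels of the rising members at 1 to 5 h ran from 0.260 to 101 CPM with a median of 6.93 CPM, near the median of 8.54 CPM over the genes that passed. The median of the rising members at 7 to 11 h was 12.0 CPM. The list holds low genes: 11 rising members were under 5 CPM at 1 to 5 h, and 3 had fewer than 10 expected counts in at least 1 of the 10 libraries. The rising members of ranks 15 and 16 had expected counts within 0.01 of each other in all libraries of the time series and a whole count in 0% of them. Their reads cannot be told apart and they are 1 observation, although the counts below include both. The median effective length was 2190 bases over 31 rising members with a value and 2258 bases over the genes that passed.

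The falling member with the largest difference, Xelaev18014474m.g, was at 58.1, 81.6, 67.8, 48.6 and 51.9 CPM at 1 to 5 h in S7. At 7 to 11 h it was at 38.7, 38.9, 33.1, 24.4 and 24.2 CPM. These values followed a much lower one at 0 h, 9.55 CPM. The later libraries were still above this starting level, and every earlier library was above every later one. The mean level was 61.6 ± 13.4 CPM (SD, n = 5) and then 31.8 ± 7.28 CPM (SD, n = 5), which is 1.93-fold lower. The difference was -0.94 on the log2(CPM + 1) scale.

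Xelaev18039310m.g, the next falling member, was at 22.5, 19.8, 25.9, 19.0 and 27.2 CPM at 1 to 5 h. At 7 to 11 h it was at 11.4, 11.5, 11.8, 12.1 and 10.4 CPM. The later libraries were close to the 0 h value of 10.7 CPM and to each other, and the 6 h library (16.6 CPM) lay between the windows. Its mean level was 22.9 ± 3.64 CPM (SD, n = 5) and then 11.4 ± 0.65 CPM (SD, n = 5), 2.00-fold lower, with a difference of -0.93.

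Over the 18 falling members the difference ranged from -0.94 to -0.60 with a median of -0.69. Mean levels at 1 to 5 h ran from 1.08 to 106 CPM with a median of 9.80 CPM. At 7 to 11 h the median was 5.84 CPM. Of the falling members, 7 were under 5 CPM at 1 to 5 h and 4 had fewer than 10 expected counts in at least 1 of the 10 libraries. Their median effective length was 2247 bases over the 17 with a value. The median share of libraries in which a member had a whole expected count was 69.5% for the falling and 35.2% for the rising members, against 16.2% over the genes that passed. A count that is not whole shows that RSEM divided reads between gene models, so a higher share means that this was seen in fewer libraries.

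At the threshold, the 2 rising members just inside had differences of 0.61 and 0.61, and the 2 gene models just outside had 0.60 and 0.59. Among the falling members the values just inside were -0.60 and -0.61 and those just outside -0.60 and -0.59, so the threshold did not separate distinct groups. With no overlap but a difference of any size, 660 gene models were higher (1.46%) and 384 lower (0.851%) at 7 to 11 h. Without the condition on the pairs, 50 were rising (0.111%) and 32 falling (0.071%). The condition removed 18 rising gene models, of which 7 were higher and 11 lower in transected than in sham cords at 16 to 21 h (differences of -2.13 to 1.76). It also removed 14 falling gene models, of which 12 were higher and 2 lower (-1.21 to 2.20). For the members kept, the mean pair difference ran from -0.57 to 0.56 (median -0.05, rising) and from -0.44 to 0.59 (median 0.05, falling).

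The scaling of the libraries moved the lists. The TMM factors of edgeR, which rest on the bulk of the genes rather than on the plain total, were 0.974 to 1.07 at 1 to 5 h and 1.01 to 1.11 at 7 to 11 h. With them the median difference of the genes that passed was 0.01 in place of 0.04. On this scale 11 gene models met the rule as rising, 10 of them members, and 32 as falling, including all 18 members. Of the 32 rising members, 23 kept windows without overlap and 19 kept a difference of 0.6 or more, with a median of 0.61. The median of the falling members was -0.72. Leaving out the S7 library of 4 h gave 116 rising and 91 falling gene models. Leaving out that of 10 h gave 75 rising, and leaving out those of 5, 7 and 8 h, in turn, gave 34, 33 and 32 falling.

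**Figure D1:**
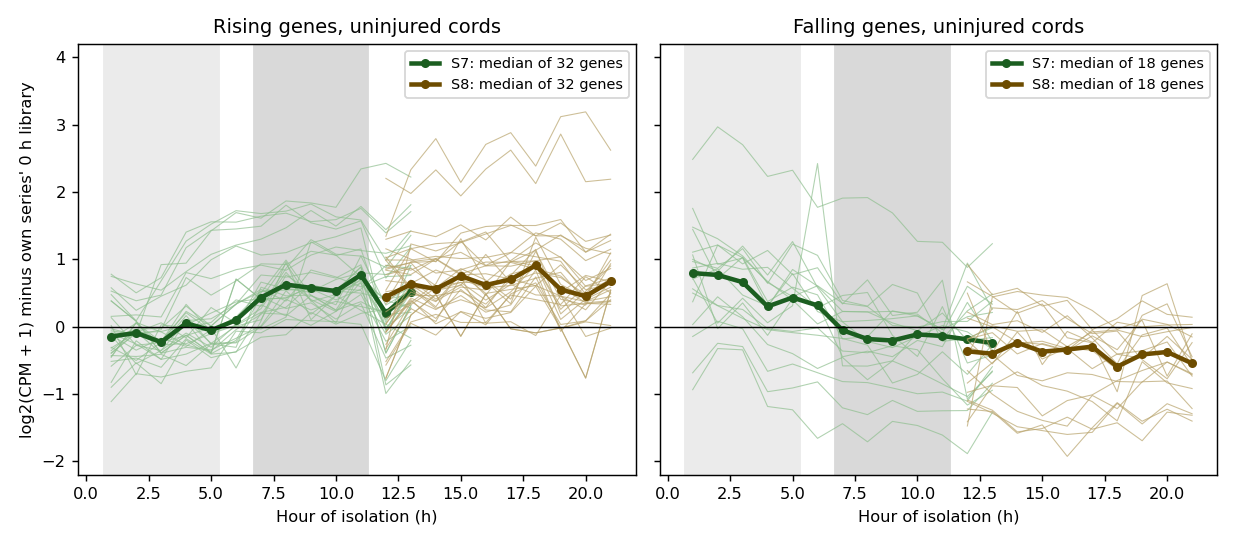
Difference of log2(CPM + 1) from the 0 h library of the same series (vertical axis) by hour (horizontal axis) in the uninjured series S7 and S8, for the rising and the falling members. Thin lines are single members, thick lines their median, and the shaded bands mark 1 to 5 h and 7 to 11 h, the hours of the rule. The rising median reaches 0.77 at 11 h and stays above 0 in S8 from 13 h on, and the falling median starts at 0.80 at 1 h and is at -0.14 at 11 h.

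The hours of S7 outside the windows show where the members stood before and after. At 0 h, 10 of 32 rising members lay beyond all 5 libraries of 1 to 5 h on the side of 7 to 11 h. The median over the rising members was 0.10 from the mean of 1 to 5 h and -0.57 from that of 7 to 11 h. At 6 h, 19 rising members had passed all libraries of 1 to 5 h, with a median of 0.32 above their mean. At 12 h and 13 h, the hours of the libraries that stood apart, 17 and 21 had passed them, with medians of 0.26 and 0.59. The share of all genes past those libraries is not given here, so these counts are not a result about the members. By their medians, the rising members were near their early level at 0 h, intermediate at 6 h and still raised at 13 h. From their own 0 h library, the median difference of the rising members in S7 was -0.15 at 1 h, 0.43 at 7 h, 0.63 at 8 h and 0.77 at 11 h. All 32 were above their 0 h value at 9, 10 and 11 h.

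The falling members had another course. Their median from the 0 h library of S7 was 0.80, 0.77, 0.66, 0.30 and 0.43 at 1 to 5 h, 0.32 at 6 h, -0.05 at 7 h and -0.14 at 11 h. At 0 h, 11 of 18 falling members already lay below all 5 libraries of 1 to 5 h, with a median of -0.68 from the mean of 1 to 5 h and 0.06 from that of 7 to 11 h. For most of the falling members the windows thus compare raised levels after the first library with levels near that of the first library. At 12 h and 13 h, 14 and 14 members lay below all libraries of 1 to 5 h, with medians of -0.89 and -0.65. The share of all genes below those libraries is not given here, so these counts and that of 0 h are not a result about the members. The 0 h library of S8 differed from that of S7 in the level of the falling members. Its falling members were at a median of -0.07 from the S7 mean of 1 to 5 h, and those of S1 to S6 were at -0.80 to -0.45.

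Split by the level at 0 h in S7, 10 falling members were 0.6 or more higher at 1 to 5 h than at 0 h (0.63 to 2.54, median 0.97), and 8 were not (-0.80 to 0.34, median 0.08, of which 4 were below 0). This split was chosen after the values were seen and carries no test. Both Xelaev18014474m.g and Xelaev18039310m.g belong to the 10. The falling member of rank 7 shows the other shape, at 92.2 CPM at 0 h, 47.7, 73.4, 72.4, 40.0 and 38.6 CPM at 1 to 5 h and 27.5 to 34.2 CPM at 7 to 11 h in S7. In S8, which the split did not use, it was at 57.0 CPM at 0 h and at 14.3 to 25.5 CPM from 12 h on. The mean at 13 to 21 h minus 0 h in S8 had a median of -0.12 over the 10 raised members (7 of 10 below 0) and of -1.01 over the other 8 (8 of 8 below 0). Over the genes that passed, the median was 0.03, with 44.5% below 0. In sham cords of S1 and S2 at 0.5 to 2 h, the median difference from 0 h was 0.70 over the 10 (10 of 10 above 0) and 0.11 over the 8 (7 of 8 above 0). Over the genes that passed it was -0.02, with 44.7% above 0. In sham cords of S3 at 1 to 5 h it was 0.74 and 0.11, against 0.02 over the genes that passed.

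**Figure D2:**
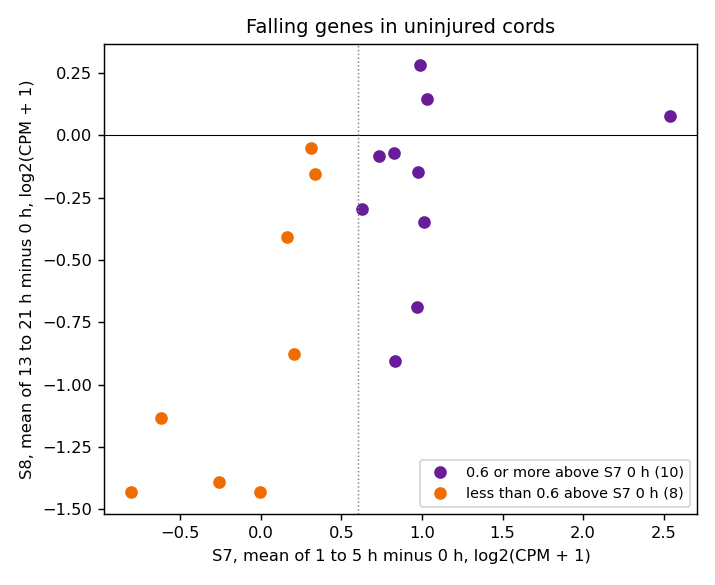
Each point is 1 of the 18 falling members, placed by its mean log2(CPM + 1) at 1 to 5 h minus 0 h in S7 (horizontal axis) and at 13 to 21 h minus 0 h in S8 (vertical axis), with a dotted line at 0.6. The 10 members right of the line scatter around a median of -0.12 in S8, with 7 below 0, and the 8 left of it are all below 0, with a median of -1.01.

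The uninjured libraries that the rule did not use answer whether the members still differed from 0 h at later hours. They are the 0, 6, 12 and 13 h libraries of S7 and all of S8, fitted together with the series as a term (15 libraries). At 12 to 13 h, 12 of 32 rising members were higher than at 0 h at an adjusted p under 0.05 by edgeR's quasi-likelihood test, where 0.541% of the 32328 genes tested were called higher and 0.928% in either direction. The median log2 fold change of the rising members was 0.75, against -0.03 over all genes tested. This window holds the S7 libraries of 12 h and 13 h and the S8 library of 12 h, which stood apart from their series, and the S8 library of 13 h. Over the genes that passed, the median difference from 0 h of the libraries that stood apart was -0.23, -0.08 and -0.15. The part of this in the calls was not tested. At 18 to 21 h, 9 rising members were higher than at 0 h (background 0.736%), and 31 of 32 had a fold change above 0. The median was 0.65, against -0.00 over all genes tested. Among the falling members, 4 were lower and 1 higher at 12 to 13 h (background of lower calls 0.387%, median -0.17). At 18 to 21 h, 4 were lower (background 1.42%, median -0.52, with 15 of 18 below 0).

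The counts of these calls changed when single libraries were left out. At 12 to 13 h, the 12 rising calls became 1 without the S7 library of 0 h, 2 without the S8 library of 0 h and 7 without the S7 library of 12 h. The 4 lower calls of falling members became 0, 0 and 1. At 18 to 21 h, the 9 rising and the 4 falling calls both became 0 without the S8 library of 0 h. The count of all genes called without each of these single libraries is not given here. A loss of calls in the members and one over all genes therefore cannot be told apart. The setting without both 12 h libraries was chosen after they were seen to stand apart. In it, 9 rising members were called higher and 1 falling member lower at 12 to 13 h (background 0.223% and 0.108%). At 18 to 21 h the counts were 11 and 4 (1.08% and 2.06%). This setting kept the S7 library of 13 h, which also stood apart. In S8 alone, which has 1 library of 0 h, edgeR's test called 0 of 32328 genes at 12 to 13 h. At 18 to 21 h it called 5 rising members higher and 3 falling members lower (background 0.152% and 0.377%).

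Xelaev18013919m.g was at 4.15 and 3.97 CPM in the 0 h libraries of S7 and S8, and at 26.7 and 23 CPM at 12 and 13 h in S7. In the 10 libraries of 12 to 21 h in S8 it was between 18.1 and 35.1 CPM (median 21.8). All later libraries were above both libraries of 0 h. For this member edgeR's quasi-likelihood test gave a log2 fold change of 2.65 (SE 0.32, adjusted p = 0.0032) at 12 to 13 h and of 2.72 (SE 0.35, adjusted p = 0.0023) at 18 to 21 h. Xelaev18012821m.g was at 2.03 and 1.65 CPM at 0 h and between 4.16 and 6.02 CPM at 12 to 21 h in S8, with no overlap. At 12 and 13 h in S7 it was at 2.79 and 3.41 CPM, above both 0 h libraries but below its S7 mean of 7 to 11 h (4.88 CPM). Its log2 fold change was 1.21 (SE 0.23, adjusted p = 0.029) at 12 to 13 h and 1.33 (SE 0.26, adjusted p = 0.0161) at 18 to 21 h by edgeR's test. The rising member of rank 3 had the largest fold change of the members at 18 to 21 h, 2.98 on the log2 scale (SE 0.57, edgeR adjusted p = 0.016). It was at 0.839 CPM at 0 h and 8.61, 15.0, 15.8 and 10.3 CPM at 18 to 21 h in S8. The fit also used the S7 library of 0 h, so these S8 levels alone do not give the fold change of 2.98.

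The named falling members were not called lower than at 0 h at 18 to 21 h by edgeR's test. Xelaev18014474m.g was at 21.1 CPM at 0 h and at 34.1 CPM at 12 h in S8 and at 21.1 to 22.2 CPM at 18 to 21 h. Its log2 fold change at 18 to 21 h was 0.19 (edgeR adjusted p = 0.831). At 12 to 13 h it was 1.02 (SE 0.20, edgeR adjusted p = 0.0313), the 1 higher call among the falling members. Xelaev18039310m.g was at 13.4 CPM at 0 h and between 8.25 and 13.2 CPM at 12 to 21 h in S8, all below 0 h. The 4 falling members called lower at 18 to 21 h, those of ranks 7, 12, 13 and 18, all belong to the 8 that were not raised after 0 h in S7, a split that used the same S7 library of 0 h. Their log2 fold changes were -1.44, -1.34, -1.27 and -1.13.

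Among the later hours, no further step was called by edgeR's test, while DESeq2 made calls. Between 14 to 17 h and 12 to 13 h, and between 18 to 21 h and 12 to 13 h, edgeR's test called 0 of 32328 genes. An unadjusted p under 0.05 was found for 7203 and 8780 genes, among them 7 and 8 rising and 7 and 6 falling members. DESeq2 called 727 and 3039 genes in these contrasts, with 3 falling members lower in each, and 3 rising members higher and 2 lower in the latter. Without the S8 library of 13 h, edgeR's test called 5 rising members higher and 3 lower, and 7 falling members lower and 1 higher, at 14 to 17 h. At 18 to 21 h these counts were 6, 4, 5 and 2. With that library left out, the 12 to 13 h window held only the S7 libraries of 12 h and 13 h and the S8 library of 12 h. These are the libraries that stood apart from their series. The share of all genes called in this setting is not given here, so these counts are not a result about the members. All 32 rising members had a mean at 13 to 21 h above 0 h in S8 (0.07 to 2.69, median 0.63), against 55.4% of the genes that passed (median 0.03). Of the falling members, 15 of 18 had a mean below 0 h.

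**Figure D3:**
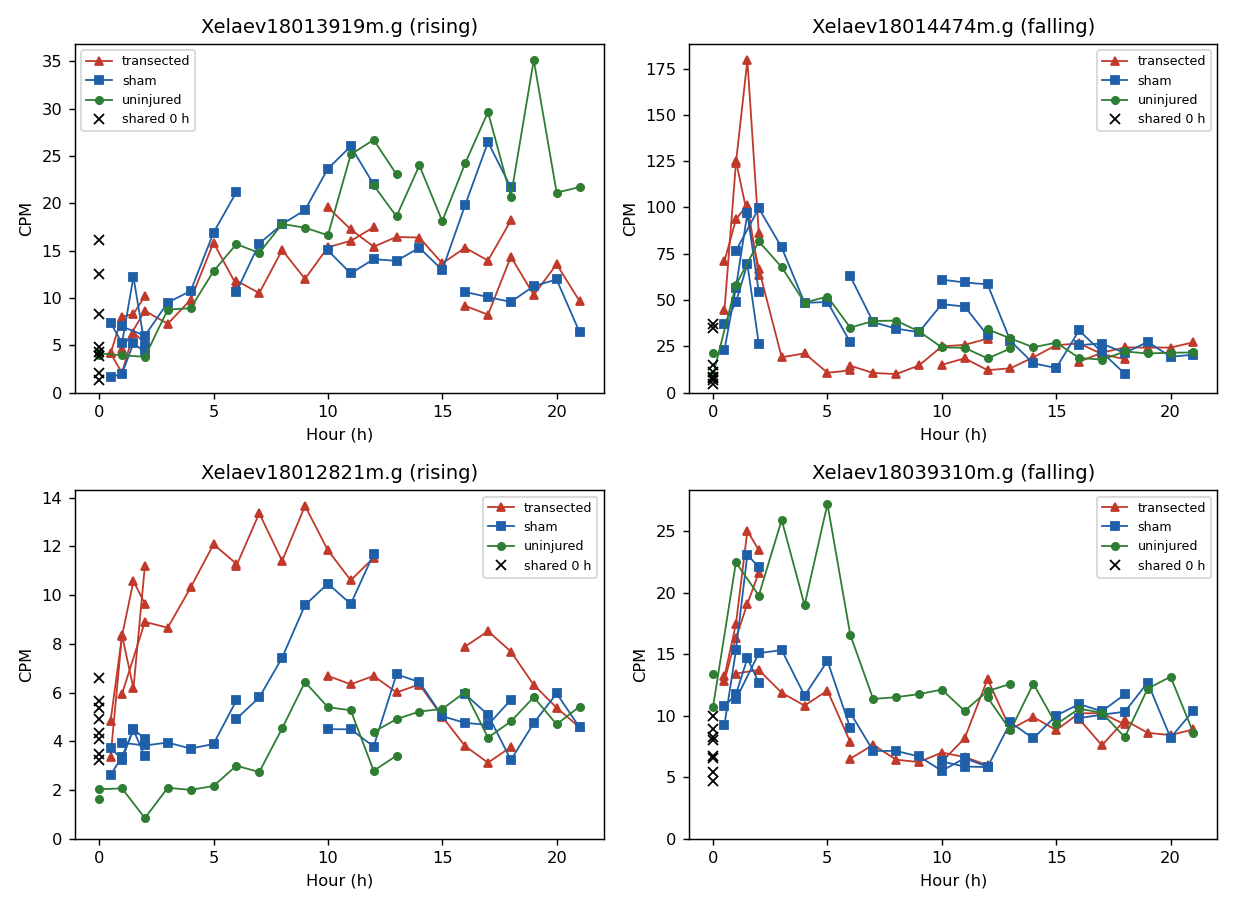
CPM by hour for the 2 rising and the 2 falling members named by identifier, in uninjured, sham and transected libraries and the shared 0 h libraries, 1 point a library, with lines joining the hours of a series. Xelaev18013919m.g climbs from 1 to 11 h in the uninjured series S7 and in sham libraries of S3 and S4. In transected libraries it goes from 4.59 CPM at 1 h in S3 to 16.0 CPM at 11 h in S4. The sham libraries of S6 cover only 16 to 21 h, at 6.40 to 11.9 CPM, with 12.5 CPM at 0 h. Xelaev18012821m.g is higher in transected than in sham libraries from 1 to 10 h. Xelaev18014474m.g peaks within 2 h in all conditions and is lowest after transection from 3 to 9 h.

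Sham-operated cords allow the comparison of the same hours in other batches of animals. The hours 1 to 5 h lie in S3 and 7 to 11 h in S4, and the fit joined the series through their 0 h and 6 h libraries (15 libraries). For 7 to 11 h against 1 to 5 h, edgeR's test called 0 of 32328 genes. An unadjusted p under 0.05 was found for 3870, among them 12 rising members that were higher and 9 falling members that were lower. DESeq2 called 54 genes, 1 rising and 1 falling member among them. The fitted log2 fold changes had medians of 0.66 over the rising and -0.72 over the falling members, against -0.00 over all genes tested, with 31 of 32 above 0 and 15 of 18 below 0.

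Taken directly, without the fit, the sham libraries of 7 to 11 h in S4 were above those of 1 to 5 h in S3 with no overlap for 7 of 32 rising members, where 2.61% of all gene models were. They were below them for 8 of 18 falling members, where 2.85% were. With a difference of 0.6 or more as well, the counts were 6 (0.149%) and 5 (0.31%). The median difference was 0.48 over the rising members (31 of 32 above 0) and -0.45 over the falling (18 of 18 below 0), against -0.01 over the genes that passed. In this comparison the hour and the series cannot be told apart. Within S4, the mean of 10 to 12 h minus that of 6 to 7 h had a median of 0.31 over the rising members (29 of 32 above 0, where 53.0% of the genes that passed were). Over the falling members it was -0.23 (15 of 18 below 0, where 46.7% were). Within S3, the mean of 5 to 6 h minus that of 1 to 2 h had a median of 0.07 over the rising members (20 of 32 above 0, where 56.5% were). Over the falling members it was -0.32 (16 of 18 below 0, where 43.2% were).

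Against 0 h, 6 rising members were higher in sham cords at 7 to 11 h by edgeR's test (background 0.164% higher and 0.167% in either direction, median log2 fold change 0.75, 30 of 32 above 0), those of ranks 1, 4, 5, 8, 14 and 26. At 1 to 5 h, 2 falling members were higher (background 0.118%, median 0.71), and these were Xelaev18014474m.g and Xelaev18039310m.g. The 6 calls became 0 without any 1 of the S3 and S4 libraries of 0 h and 6 h, 2 without the S4 library of 9, 10 or 11 h, and 3 without the S3 library of 3 h. The 2 calls became 1 without any 1 of the same libraries of 0 h and 6 h and 4 without the S3 library of 5 h. The count of all genes called without each library is not given here, so these changes are not a result about the members. Of the 9 rising members called at 18 to 21 h in uninjured cords, 3 were among the 6 called in sham cords, which is 33.3% of the former and 50% of the latter. Of the 12 called at 12 to 13 h, 5 were (41.7% and 83.3%). The overlap of these calls over all genes is not given here, so these shares are not a result about the members.

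In sham cords, Xelaev18013919m.g was at 6.00 to 16.9 CPM (median 9.51) at 1 to 5 h in S3 and at 15.7 to 26 CPM (median 19.3) at 7 to 11 h in S4. The windows overlapped in the S3 library of 5 h, and the 0 h libraries were at 3.90 and 4.29 CPM. Its log2 fold change was 2.55 (SE 0.38, edgeR adjusted p = 0.0051) for 7 to 11 h against 0 h and 1.54 (SE 0.43, adjusted p = 0.228) against 1 to 5 h. Xelaev18012821m.g was at 3.70 to 3.95 CPM at 1 to 5 h and at 5.80 to 10.5 CPM at 7 to 11 h, without overlap. Its fold change against 0 h did not pass edgeR's test (0.89, adjusted p = 0.201). Both levels were above those of uninjured cords at the same hours, and the 0 h libraries of S3 and S4 were as well (3.25 and 5.36 CPM).

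For the falling members, Xelaev18014474m.g was at 76.6, 99.5, 78.4, 48.5 and 48.9 CPM at 1 to 5 h in sham cords of S3 and at 32.6 to 47.8 CPM at 7 to 11 h in S4. The windows did not overlap, and the 0 h libraries were at 11.1 and 6.97 CPM. Its log2 fold change in sham cords was 3.19 (SE 0.40, edgeR adjusted p = 0.0014) for 1 to 5 h against 0 h and -1.25 (SE 0.45, adjusted p = 0.292) for 7 to 11 h against 1 to 5 h. Cords without surgery and cords with sham surgery thus showed the same order of levels for this gene at 0, 1 to 5 and 7 to 11 h. Xelaev18039310m.g was at 11.3 to 15.3 CPM in S3 and at 5.53 to 7.15 CPM in S4. Its log2 fold changes were 1.17 (SE 0.19, edgeR adjusted p = 0.0131) against 0 h at 1 to 5 h and -1.01 (SE 0.22, adjusted p = 0.177) between the windows. The latter was called by DESeq2 (-1.02, adjusted p = 0.0328).

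The later sham series did not show the same course from their own 0 h libraries. In S4 the median of the rising members from 0 h went from 0.08 at 6 h and 0.15 at 7 h to 0.40, 0.53, 0.55 and 0.58 at 8, 9, 10 and 11 h. In S5 (10 to 18 h) it stayed between -0.10 and 0.41, and in S6 (16 to 21 h) between -0.11 and 0.10. The median of the falling members was above 0 h at every hour of these series, by 0.17 to 0.39 in S5 and 0.06 to 0.29 in S6. Over the genes that passed, it was -0.03 to 0.08 in S5 and -0.01 to 0.08 in S6. In uninjured cords of S8, the falling members had gone the other way (-0.59 to -0.24 at 12 to 21 h). The 0 h libraries of S5 and S6 already had higher levels of the rising members, with medians of 0.49 and 0.50 above the S7 mean of 1 to 5 h, where those of the other 6 series lay between -0.14 and 0.12. Level at 0 h and batch of animals cannot be told apart in these series.

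**Figure D4:**
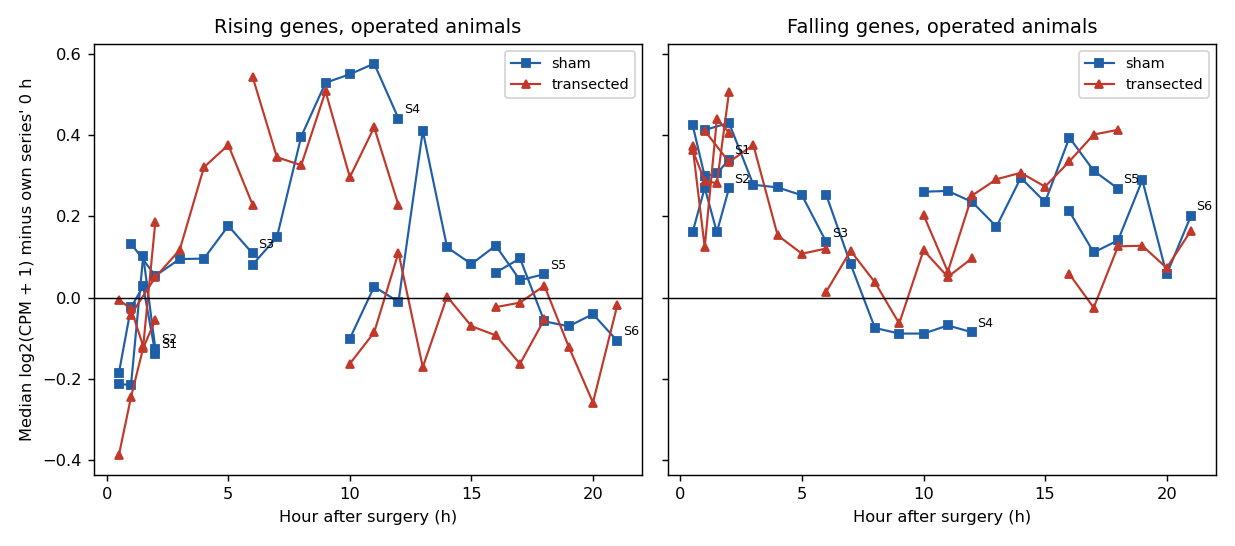
Median difference of log2(CPM + 1) from the 0 h libraries of the same series over the rising (32) and the falling (18) members, by hour, for sham and transected libraries of S1 to S6. Each line is a series in 1 condition, and both conditions share the 0 h libraries. The sham line of S4 climbs to 0.58 at 11 h for the rising members, while those of S5 and S6 stay between -0.11 and 0.41. For the falling members, the sham lines of S5 and S6 stay above 0, between 0.06 and 0.39.

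Transected cords were fitted in the same way and share the 0 h libraries of the sham fit, and the difference between the fits was not tested. For 7 to 11 h against 1 to 5 h, edgeR's test called 1 gene of all, lower (0.00309%), and 0 members. An unadjusted p under 0.05 was found for 2594 of 32328 genes (8.02%), among them 2 rising members that were higher and 1 falling member that was lower. These are 6.25% of the rising and 5.56% of the falling members, not above the share of all genes. DESeq2 called 0 members. The median log2 fold change was 0.27 over the rising and -0.48 over the falling members, against -0.02 over all genes tested. Taken directly, S4 lay above S3 with no overlap for 6 rising members (background 4.44%) and below it for 4 falling members (3.16%). With a difference of 0.6 or more as well, the counts were 2 (0.359%) and 3 (0.723%). The medians were 0.21 (28 of 32 above 0) and -0.35 (18 of 18 below 0). Within S4, the mean of 10 to 12 h minus that of 6 to 7 h had a median of -0.05 over the rising members, with 14 of 32 above 0, where 60.1% of the genes that passed were. Over the falling members it was -0.01. Within S3, the mean of 5 to 6 h minus that of 1 to 2 h had a median of 0.27 over the rising members. Of these, 21 of 32 were above 0, where 49.2% of the genes that passed were. Over the falling members the S3 median was -0.39, with 15 of 18 below 0, where 50.5% were.

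Against 0 h, 7 rising members were higher in transected cords at 7 to 11 h by edgeR's test (background 0.73% higher and 0.906% in either direction, median 0.32). The count became 1 and 0 without the S3 and S4 libraries of 0 h, 1 without either library of 6 h and 3 without the S4 library of 10 h. The count of all genes called without each library is not given here, so these changes are not a result about the members. At 1 to 5 h, 1 rising and 1 falling member were higher (background 0.479% higher and 0.0217% lower, medians 0.29 and 0.40). DESeq2 called 6 rising members higher in this contrast, and leaving out each library gave 0 to 3 rising and 0 to 1 falling members higher. Over all genes tested, DESeq2 called 391 of 32302 higher in this contrast and edgeR's test 155. The 1 rising member called by edgeR's test was Xelaev18012821m.g, with a log2 fold change of 1.26 (SE 0.28, edgeR adjusted p = 0.0475). The 1 falling member was Xelaev18039310m.g, with 0.92 (SE 0.18, edgeR adjusted p = 0.0282). Xelaev18013919m.g was higher at 7 to 11 h than at 0 h in transected cords, by 1.71 on the log2 scale (SE 0.36, edgeR adjusted p = 0.0273). It went from 4.59 to 15.8 CPM at 1 to 5 h to 10.5 to 16.0 CPM at 7 to 11 h, with overlap.

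The direct comparison of transected with sham libraries of the same series and hour used the pair as a block, over 36 pairs. At 0.5 to 2 h, 4 of 32 rising members were higher and 0 lower in transected cords (background 4.34% higher and 2.2% lower, median log2 fold change 0.01), and 3 of 18 falling members were higher and 0 lower (median 0.16). At 3 to 6 h, 8 rising members were higher and 6 lower (background 2.99% and 1.37%, median -0.01), and 2 falling members were lower (median -0.09). At 7 to 10 h, 4 rising members were higher and 10 lower (background 3.92% and 2.1%, median -0.20), and 1 falling member was lower (median -0.08). At 11 to 15 h, 1 rising member was higher and 13 lower (background 11.5% and 11.4%, median -0.27), and 3 falling members were lower (median -0.03). In at least 1 of the 3 windows from 3 to 15 h, 23 of 32 rising and 4 of 18 falling members were called, where 24.96% of all genes tested were. The count of the falling members was thus near the background. The members had to have a small pair difference at 16 to 21 h, and the genes of the background did not. The part of this condition in the counts was not tested. Over all genes tested, 6.54%, 4.36%, 6.03% and 22.8% were called in either direction in the 4 windows, and 38.8% at 16 to 21 h, the window of the condition.

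At 3 to 6 h and 7 to 10 h, the rising members that were higher and those that were lower after transection were separate genes. The 4 called higher at 7 to 10 h were all among the 8 called higher at 3 to 6 h. The 6 called lower at 3 to 6 h were all among the 10 called lower at 7 to 10 h, and 0 went from higher at 3 to 6 h to lower at 7 to 10 h. Of the 10 called lower at 7 to 10 h and the 13 at 11 to 15 h, 8 were shared (80% and 61.5%). How often calls over all genes were shared between these windows is not given here, so these overlaps are not a result about the members. Without the S5 pair of 12 h, 5 falling members were higher at 0.5 to 2 h in place of 3, 1 falling member was higher at 11 to 15 h in place of 0, and 1 rising member was lower at 0.5 to 2 h in place of 0. Without it, 8 rising members were lower at 3 to 6 h in place of 6 and 11 at 11 to 15 h in place of 13. The median of the falling members at 11 to 15 h was 0.05 in place of -0.03. Over all genes tested, lower calls went from 710 to 880 at 0.5 to 2 h, from 443 to 664 at 3 to 6 h and from 3671 to 2823 at 11 to 15 h. Higher calls went from 1403 to 1706 at 0.5 to 2 h and from 3702 to 3504 at 11 to 15 h. Without the S5 pairs of 10, 11 and 12 h, a setting chosen after these libraries were seen to stand apart, 3 rising members were higher and 10 lower at 7 to 10 h. In that setting 0 rising members were higher and 11 lower at 11 to 15 h, 8 were lower at 3 to 6 h and 1 was lower at 0.5 to 2 h. The median of the falling members at 11 to 15 h was 0.01. Over all genes tested, this setting called 1017 higher and 525 lower at 7 to 10 h, and 2925 and 2401 at 11 to 15 h. It called 656 lower at 3 to 6 h and 937 lower at 0.5 to 2 h. Without the S4 pair of 7 h, 2 rising members in place of 4 were higher at 7 to 10 h. That fit kept the spread estimated with all pairs, unlike the settings without S5 pairs.

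Among the members higher after transection, the largest fold change at 3 to 6 h was that of the rising member of rank 28, 1.46 on the log2 scale (SE 0.16, edgeR adjusted p = 1e-08). It was at 3.14, 3.75, 4.6 and 3.98 CPM in sham and at 11.3, 9.15, 11.5 and 11.0 CPM in transected libraries of S3 at 3 to 6 h, without overlap. In S4 the transected libraries came down to the sham level by 12 h (6.51 CPM sham and 6.39 CPM transected). Xelaev18012821m.g was next, with log2 fold changes of 1.05 (SE 0.15, edgeR adjusted p = 5e-06) at 0.5 to 2 h, 1.33 (SE 0.19, adjusted p = 3.3e-06) at 3 to 6 h. At the later windows they were 0.59 (SE 0.18, adjusted p = 0.0401) at 7 to 10 h and 0.11 (adjusted p = 0.68) at 11 to 15 h. Its transected libraries were at 8.67, 10.3, 12.1 and 11.3 CPM at 3 to 6 h in S3, where the sham libraries were at 3.95, 3.70, 3.89 and 5.68 CPM. From 4 h on, the transected libraries of S3 and S4 were within or above the range of sham libraries at 9 to 12 h in S4 (9.59 to 11.7 CPM).

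Among the members lower after transection, that of rank 4 reached 37.7, 46.8 and 49.0 CPM at 4, 5 and 6 h in sham cords of S3, and to 28.1, 32.4 and 23.3 CPM in transected cords. At 7 to 10 h in S4 it was at 36.4 to 45.9 CPM in sham and at 19.9 to 25.1 CPM in transected cords, without overlap. Its log2 fold change was -0.82 (SE 0.11, edgeR adjusted p = 1.2e-06) over the pairs of that window. The other 9 members lower at 7 to 10 h had log2 fold changes of -2.0 to -0.53. The lowest belonged to rank 32 (SE 0.54, edgeR adjusted p = 0.0166), a low gene at 1.32 to 3.62 CPM in sham and 0.298 to 1.02 CPM in transected libraries of S4 at 7 to 10 h. Xelaev18013919m.g was not called in any of the 4 windows.

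Xelaev18014474m.g was higher and then lower after transection. In S1 its transected libraries were at 44.7, 124, 180 and 86.2 CPM at 0.5, 1, 1.5 and 2 h, and its sham libraries at 23.2, 56.7, 96.8 and 54.3 CPM. The transected library was the higher of each pair, as in S2. In S3 it was at 125 CPM at 1 h, 66.9 CPM at 2 h, 19.1 CPM at 3 h and 10.7 CPM at 5 h after transection. Sham cords of S3 were at 76.6, 99.5 and 78.4 CPM at 1, 2 and 3 h and still at 48.9 CPM at 5 h. At 2 h the transected library was thus the lower of the pair in S3, unlike in S1 and S2. The log2 fold changes by edgeR's test were 0.78 (SE 0.18, adjusted p = 0.0049) at 0.5 to 2 h, -1.72 (SE 0.27, adjusted p = 1.81e-05) at 3 to 6 h. They were -1.54 (SE 0.27, adjusted p = 0.000111) at 7 to 10 h and -0.74 (SE 0.23, adjusted p = 0.0163) at 11 to 15 h. The 0 h libraries shared by both conditions ranged from 4.54 to 37.2 CPM (median 9.63), so its level before surgery varied among the series. The other falling member named, Xelaev18039310m.g, was called only at 0.5 to 2 h of these 4 windows, with 0.32 (SE 0.09, edgeR adjusted p = 0.0183).

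**Figure D5:**
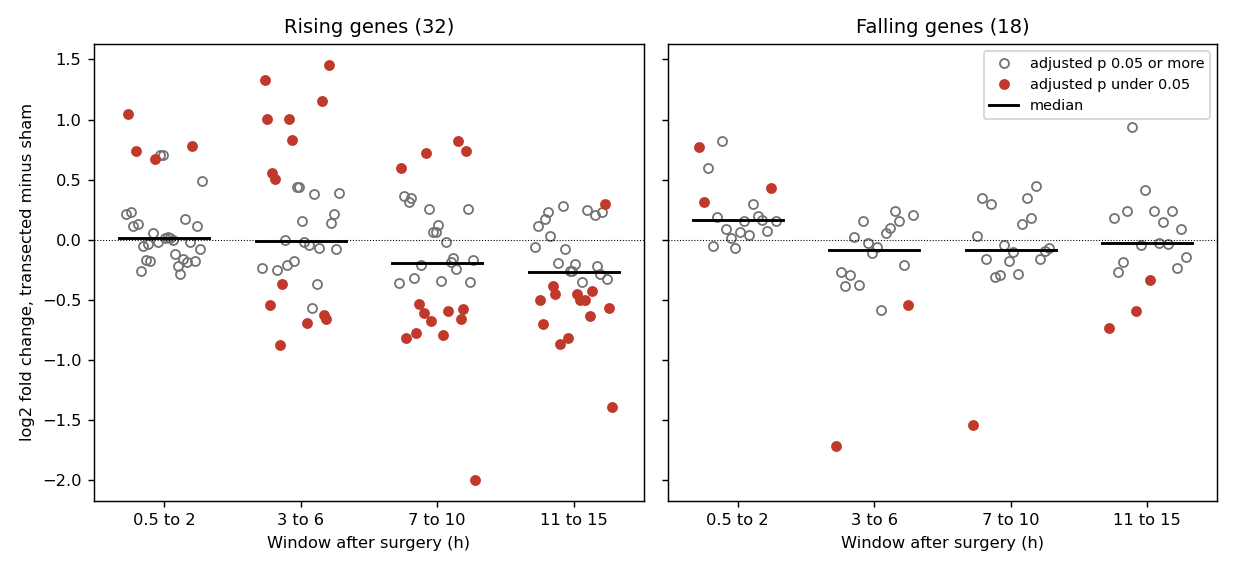
Log2 fold change of transected against sham libraries at 3 to 6 h, 7 to 10 h and the other windows that the rule did not use, for each rising and falling member, with called members (edgeR adjusted p under 0.05) filled. The rising members spread to both sides at 3 to 6 h (8 higher, 6 lower) and lie more often below 0 at 11 to 15 h (1 higher, 13 lower), and Xelaev18014474m.g is the lowest falling member at 3 to 6 h (-1.72).

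Torin1 and DMSO libraries, 1 of each at a time point and so without a replicate check, held members past a difference of 0.6 in both directions. At 24 h, 6 rising members were higher and 2 lower with Torin1, and 2 falling members were higher and 5 lower, where 6.65% of all gene models and 9.26% of the genes that passed the filter differed by 0.6 or more in either direction. At 48 h, when the treatment had ended, the counts were 1 and 0 for the rising and 1 and 2 for the falling members (background 2.15% and 2.99%). At 96 h they were 2 and 0, and 0 and 2 (background 1.02% and 1.42%). The medians were 0.21, 0.06 and 0.16 over the rising and -0.04, 0.05 and -0.05 over the falling members, against -0.01, 0.05 and 0.00 over the genes that passed. Xelaev18013919m.g was at 17.9 CPM with Torin1 and 5.51 CPM with DMSO at 24 h, at 4.84 and 2.34 CPM at 48 h and at 2.08 and 1.63 CPM at 96 h. It had the highest difference of the rising members at 24 h (1.54) and 48 h (0.81). At 24 h, Xelaev18012821m.g was at 7.98 CPM with Torin1 and 5.13 CPM with DMSO. Xelaev18014474m.g was at 7.27 and 7.55 CPM, and Xelaev18039310m.g at 6.28 and 7.93 CPM, in the same order.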

How the data were processed

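Each library was an mRNA-seq library of pooled spinal cords. The authors mapped reads to the *X. laevis* transcriptome with Bowtie and RSEM (Bowtie2 in the Torin1 experiment) and deposited, for each gene model, an expected count, RSEM's estimate of its reads, which is not normalized. The deposited TPM and FPKM values are scaled by the authors to library size and transcript length, and here they served only as an alternative unit and for effective length. RSEM divides reads among similar transcripts, so counts of near-identical copies and homeologs are uncertain.

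The members and lists were chosen with earlier results of these data known. CPM used the plain library total. Tests used rounded expected counts in R 4.3.3 with edgeR 4.0.16 (TMM, quasi-likelihood test, Benjamini-Hochberg adjustment over the 32328 genes with at least 5 counts at no fewer than 4 time points), and DESeq2 1.42.0 was an alternative. The fitting script was tested on simulated data. Fits of hours had series and hour window as terms, and fits of transected against sham had the pair. The pairing comes from the design, in which both conditions of a pair share the batch, series and hour. The deviations of the libraries of a pair from the mean of their condition and series correlated by -0.57 to 0.82 (median 0.21), with 23 of 36 pairs over 0.1. These deviations also hold changes by hour that both conditions share, so the correlation does not check the pairing. The identifiers printed are the 2 rising and 2 falling members of largest difference, since no symbol could be matched, and members given by rank were singled out after their values were seen. Lists of clock genes, cell type markers and homeologs could not be used, for the same reason. Alternatives were another scaling, unit, pseudocount, filter, threshold and test, and leaving out libraries or pairs.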

Additional observations from a re-analysis of the deposited data

Results flagged for a closer look

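Of 56 groups of libraries examined for 1 library far from the others, 3 held one, where chance gives about 1 in 20. Xelaev18012821m.g was lowest in the S7 library of 2 h among those of 1 to 5 h, at 0.849 CPM, where the next was at 2.01 CPM (n = 5). The S8 library of 12 h had the lowest median Spearman correlation with its series among those of 12 to 21 h, 0.932, where the next was 0.985 (n = 10). In sham cords of S4 at 7 to 11 h, the median difference of the falling members from 0 h was highest at 7 h, 0.083, where the next was -0.07 (n = 5).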

How the results depend on the processing

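The number of rising and falling members depended on every setting of the rule except the filter on low counts, which left both lists as they were. It was 11 and 32 with TMM library sizes, 119 and 64 with a pseudocount of 0.1, 7 and 4 with a pseudocount of 5, 2 and 0 with a threshold of 1, 50 and 32 without the condition on the pairs, and 58 rising with TPM. Leaving out each S7 library gave 24 to 116 rising and 15 to 91 falling gene models. The cause of these changes was not tested. In uninjured cords, S8 alone called 0 rising members higher and 0 falling members lower or higher at 12 to 13 h against 0 h, and 5 rising members at 18 to 21 h, and without both 12 h libraries 1 falling member was lower and 0 higher at 12 to 13 h. DESeq2 called 16 rising members higher at 18 to 21 h against 0 h, where it called 578 of 32301 genes higher and edgeR's test 238. At 14 to 17 h against 12 to 13 h, DESeq2 called 3 falling members lower, among 601 genes lower. At 18 to 21 h against 12 to 13 h it called 3 falling members lower, and 3 rising members higher and 2 lower, among 833 genes higher and 2206 lower. Leaving out each library gave, at 12 to 13 h against 0 h, 1 to 18 rising members higher and 0 to 1 lower, and 0 to 6 falling members lower and 0 to 2 higher, and at 18 to 21 h against 0 h, 0 to 12 rising members higher and 0 to 4 falling lower. Against 12 to 13 h it gave 0 to 5 rising members higher, 0 to 3 lower, 0 to 7 falling lower and 0 to 1 higher at 14 to 17 h. At 18 to 21 h it gave 0 to 6, 0 to 4, 0 to 5 and 0 to 2 in the same order. The upper counts against 12 to 13 h were reached without the S8 library of 13 h, where that window held only libraries that stood apart. In sham cords, DESeq2 and the fit without a filter each called 10 rising members higher at 7 to 11 h, 4 falling members higher at 1 to 5 h and 1 falling member higher at 7 to 11 h, all against 0 h, and DESeq2 called 1 rising member higher and 1 falling member lower between the windows. Leaving out each library gave 0 to 8, 1 to 4 and 0 to 1 for the former, and 0 to 1 and 0 to 0 for the latter. In transected cords at 1 to 5 h against 0 h, DESeq2 called 6 rising members higher and the fit without a filter 2, and leaving out each library gave 0 to 3 higher and 0 to 1 lower, 0 to 1 falling members higher and, at 7 to 11 h, 0 to 8 rising members higher. Over all genes tested, DESeq2 called 167 higher at 7 to 11 h and 77 at 1 to 5 h against 0 h in sham cords. In transected cords it called 391 higher at 1 to 5 h. For the same contrasts edgeR's test called 53, 38 and 155, and the counts over all genes without a filter are not given here. Joining the series by 6 h alone called 0 members between the windows, as did the fits with 0 h, which says nothing about stability. For transected against sham libraries, the fit with no replicate block, in which the pairing is ignored, called 6 rising members higher and 4 lower at 3 to 6 h and 3 higher and 8 lower at 7 to 10 h, and it moved no count by over 1.5 times. Leaving out each of the 5 pairs of a window gave 6 to 8 higher, 4 to 5 lower and 2 to 2 falling members lower at 3 to 6 h, and 2 to 5, 7 to 9 and 1 to 1 at 7 to 10 h. These fits kept the dispersion, the estimate of each gene's spread, of the fit with all pairs. The settings without S5 pairs estimated it anew, so the counts of both kinds are not directly comparable. Without the S5 pair of 12 h, 5 falling members were higher and 1 rising member lower at 0.5 to 2 h, and 1 falling member was higher at 11 to 15 h. Without the S5 pairs of 10, 11 and 12 h, 1 rising member was lower at 0.5 to 2 h and 0 rising members were higher at 11 to 15 h. The calls over all genes changed as well in both settings, as given above. Directions turned for some values that were not called. Leaving out each library gave -0.0063 (without the S7 library of 0 h) to 0.63 (without the S8 library of 0 h) for Xelaev18014474m.g at 18 to 21 h against 0 h, and -0.37 to 0.31 (without the same libraries) for Xelaev18039310m.g. For Xelaev18012821m.g it gave -0.59 (without the S3 library of 0 h) to 0.23 (without the S3 or S4 library of 6 h or the S4 library of 0 h) in sham cords at 1 to 5 h against 0 h. In transected cords between the windows it gave -0.35 (without the S3 or S4 library of 6 h) to 0.41 (without the S4 library of 0 h), with -0.01 without the S3 library of 1 h. For the fits that left out each library or pair in turn, the count of all genes called is not given here. Their ranges are therefore not a result about the members. Low members (11 rising and 7 falling under 5 CPM) and the few libraries of 0 h limit the precision of all these values.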
